A study of Mus musculus with 18 samples.

Results

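The genes described here are 10 SR splicing factor genes, Srsf1 to Srsf7 and Srsf9 to Srsf11 (the series of names without Srsf8), taken from the 54446 genes counted in each library by matching the Ensembl identifier to the gene symbol. All 10 were found and all 10 were among the 19910 genes with enough reads to be tested. Mouse embryonic stem (mES) cells were given 5-ethynyl uridine (EU) at 1 mM, an alkyne-bearing uridine that is built into RNA during transcription, for 10, 20 or 40 min. The labelled RNA was biotinylated by click chemistry, captured on streptavidin and sequenced, with 3 libraries for each of 6 groups and 18 libraries in total. The groups were a wild-type line (WT) and a Tet2-/- line (Tet2-KO) at each labelling time. Both lines grew in serum with LIF, CHIR99021 and PD0325901 and had been moved off feeder cells onto gelatin, and every library, control or knockout, came from cells given EU. Each genotype was a single line, so replicates are dishes, and the p-values below measure no spread beyond that between these dishes.

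SR proteins carry RNA recognition motifs and a domain rich in arginine and serine. They bind exonic enhancer sequences and help U1 and U2 snRNP components to recognise splice sites, and some also take part in mRNA export. Their activity depends on phosphorylation of the serine-rich domain, and many SR genes contain a so-called poison exon whose inclusion sends the transcript to nonsense-mediated decay, a loop through which SR proteins limit their own level. TET2 oxidises 5-methylcytosine in DNA and RNA, and the comparison asks whether its loss changed how fast these genes were transcribed.

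Between 17931614 and 23069143 reads per library fell on genes and between 44162 and 512186 on ERCC transcripts, synthetic RNAs added to the captured RNA in proportion to total RNA. A level per 1000 ERCC reads is therefore a level per amount of total RNA and not per cell, and in these bulk samples fewer transcribing cells and less RNA per cell cannot be told apart. A share, in reads per 1000000 gene reads (RPM), shows instead whether a gene moved relative to all others. Reads on Tet2 itself were 176 to 190 per 1000 ERCC reads in WT and 236 to 273 in Tet2-KO libraries at 40 min, and were higher in Tet2-KO at the other times as well. On this scale 80.5% of all genes tested were called higher in Tet2-KO on average. Counts over the whole gene do not show which exons are missing, so they check nothing here, and Tet2-KO stands for the libraries with that label. Of 7 embryonic stem cell markers, 5 had a lower and 1 (Pou5f1) a higher share in Tet2-KO, while Sox2, which lies within the span of Sox2ot on the same strand, had 0 reads in every library. The size differed widely: the average log2 fold change in share was -2.25 for Zfp42, -0.64 for Klf4 and -0.47 for Tfcp2l1. It was -0.12 for Nanog, -0.06 for Esrrb and 0.16 for Pou5f1. The summed share of the 7 markers was 2822 to 3007 RPM in WT and 2044 to 2169 in Tet2-KO libraries. Primitive endoderm markers summed to 5.49 to 13.7 RPM over all libraries. The 7 fibroblast markers moved with genotype and time: after 10 min of EU their sum lay between 15.6 and 15.7 RPM in WT and between 5.49 and 6.77 in Tet2-KO. After 20 min these ranges were 2.75 to 3.41 (WT) and 11.1 to 12.6 (Tet2-KO), and after 40 min 3.64 to 4.55 (WT) and 5.14 to 6.47 (Tet2-KO). Lum had at most 1 read, Dcn at most 6 and Thy1 at most 14 in any library, and the sum was mostly collagen reads (Col1a1, 32 to 182).

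The SR genes lie on 7 chromosomes. In GRCm38, Srsf1 (ENSMUSG00000018379.17) spans chr11:88047373-88053755 on the plus strand, Srsf5 (ENSMUSG00000021134.17) chr12:80945504-80950507 on the plus strand and Srsf10 (ENSMUSG00000028676.17) chr4:135855747-135869908 on the plus strand. The shortest is Srsf2, with a span of 3194 bases, and the longest is Srsf4, with 28090. GENCODE M21 lists at least 1 transcript subject to nonsense-mediated decay for 9 of the 10 genes, Srsf10 being the exception. The reads counted here covered whole gene spans: of 2439 genes nested inside an intron of a protein-coding gene on the same strand, 2436 (99.9%) had 0 reads in all libraries, against 459 of 1998 (23%) on the opposite strand. Read totals of SR genes thus hold intron and exon reads together and cannot tell a spliced from an unspliced transcript, or a poison exon from its neighbours.

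The bases just upstream of a RefSeq transcription start are printed for 3 of the genes, because these moved in opposite directions in the comparison below. Srsf1 and Srsf10 had higher shares of gene reads in Tet2-KO at both 20 and 40 min, and Srsf5 alone had a lower share on average. Srsf7 was also higher in share at both 20 and 40 min and is not printed. The printed bases come from RefSeq on GRCm38.p6 and run 5′ to 3′ on the gene's strand. The Srsf10 window lies inside the span of Srsf10 given above, which begins at 135855747, so it is not upstream of the counted gene. Capitals mark matches on either strand to GGGCGG (the GC box), CCGGAAG (an ETS-type motif), CCAAT (the CCAAT box), TATAAA (the TATA box) or CACGTG (an E box).
Srsf1, chr11:88047123-88047372, plus strand: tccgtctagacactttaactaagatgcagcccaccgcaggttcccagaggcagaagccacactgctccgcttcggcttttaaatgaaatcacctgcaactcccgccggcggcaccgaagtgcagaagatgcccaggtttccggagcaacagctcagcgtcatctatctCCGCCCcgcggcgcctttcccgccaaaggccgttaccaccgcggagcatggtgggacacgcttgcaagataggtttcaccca
Srsf5, chr12:80945249-80945498, plus strand: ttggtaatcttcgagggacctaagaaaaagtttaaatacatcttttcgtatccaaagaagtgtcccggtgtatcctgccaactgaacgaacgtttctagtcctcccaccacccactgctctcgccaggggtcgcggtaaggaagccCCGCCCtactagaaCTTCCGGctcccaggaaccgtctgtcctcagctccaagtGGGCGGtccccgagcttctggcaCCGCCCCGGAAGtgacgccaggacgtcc
Srsf10, chr4:135855821-135856070, plus strand: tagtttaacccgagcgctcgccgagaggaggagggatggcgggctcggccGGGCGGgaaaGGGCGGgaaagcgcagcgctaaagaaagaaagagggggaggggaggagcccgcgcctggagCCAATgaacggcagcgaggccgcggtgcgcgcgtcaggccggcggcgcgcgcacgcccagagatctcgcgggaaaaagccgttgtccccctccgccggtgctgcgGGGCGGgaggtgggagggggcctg
The Srsf5 window held 3 GC boxes and 2 ETS-type motifs, with one GC box and one ETS-type motif running into each other. The Srsf1 window held 1 GC box, and the Srsf10 window 3 GC boxes and 1 CCAAT. In the window of Srsf7, not printed, there were 3 GC boxes and 1 ETS-type motif. RefSeq gave 13 such windows of 250 bases for the 10 genes. These are not all separate upstream sequences. The Srsf4 windows beginning at 131873387 and 131873389 nearly coincide. A further Srsf4 window (from 131873810) and an Srsf11 window (from 158031749) lie inside their genes, like that of Srsf10. A GC box was present in 12 of the 13 windows, from 9 genes, and in 32.7% of the 32851 windows of all genes. The ETS-type motif was present in 6 windows from 4 genes, Srsf4, Srsf5, Srsf7 and Srsf11, and in 6.91% of all windows. CCAAT was found in 3 windows (33.8% of all) and TATAAA in 2 (12.4% of all), with both in Srsf2 and Srsf3. CACGTG was in none (6.02% of all). The median GC content was 68.4% in the SR windows and 52.4% in all windows. A match is a description of these letters and not of bound protein.

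Transcription of the SR genes differed widely in level. Per kilobase of gene span, Srsf5 had the highest share in every group, with 71.4 RPM per kilobase in WT at 40 min and 58.1 in Tet2-KO at 40 min. Srsf6, Srsf2 and Srsf1 followed, at 26.4, 25.5 and 24.1 in WT at 40 min. The libraries of Srsf6 and Srsf2 overlapped in this order, and those of Srsf2 and Srsf1 did not. Srsf10 (18.3), Srsf7 (17.1), Srsf3 (13.4), Srsf11 (9.80) and Srsf4 (8.08) lay lower, each clear of its neighbour, and Srsf9 was lowest at 3.82. The order in Tet2-KO at 40 min was the same except that Srsf1 (27.9) stood before Srsf6 (27.1) and Srsf2 (25.5). There, the libraries of Srsf1 overlapped those of Srsf6. The counts cover introns as well as exons. Divided by exon length in place of span, the order in WT at 40 min began with Srsf5 (89.6), Srsf4 (53.3) and Srsf10 (37.1), and Srsf9 was again lowest (13.7). In raw reads Srsf9 was also lowest, with 328 to 526 per library and a counting error of 5.52% at the minimum, so its differences are the least precise. The other 9 genes had between 1066 and 8435 reads per library. Pico-input libraries without molecular identifiers can hold PCR copies, so this counting error is a lower limit.

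Some reads could be shared with other genes. Processed pseudogenes or near-identical copies, matching at least 95% of aligned bases, exist for Srsf3, Srsf5 and Srsf10, and these copies had 0 to 59 reads per library. Genes on the opposite strand overlap Srsf1, Srsf2 and Srsf4, with Gm11508, antisense to Srsf1, at 460 to 962 reads per library. Reads were assigned by strand, so these are counted apart.

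All 10 SR genes were higher in Tet2-KO than in WT per ERCC read, on average over the 3 labelling times and also at each time. The average log2 fold change ran from 0.59 (Srsf5) to 0.94 (Srsf1), with a median of 0.80. The same test called 80.5% of all genes higher on average, with a median log2 fold change of 0.70, and the counts of 10 out of 10 at 10, 20 and 40 min stand beside 79%, 53.7% and 68.2% of all genes. The rise of the SR genes was thus part of a rise of most genes. The libraries of the 2 genotypes did not overlap at any of the 3 times for 9 of the 10 genes, against 51.6% of all genes tested. The exception was Srsf9 at 20 min, whose call of higher was also lost there when WT 20 min replicate 3 was left out, leaving 9 genes called.

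**Figure D1:**
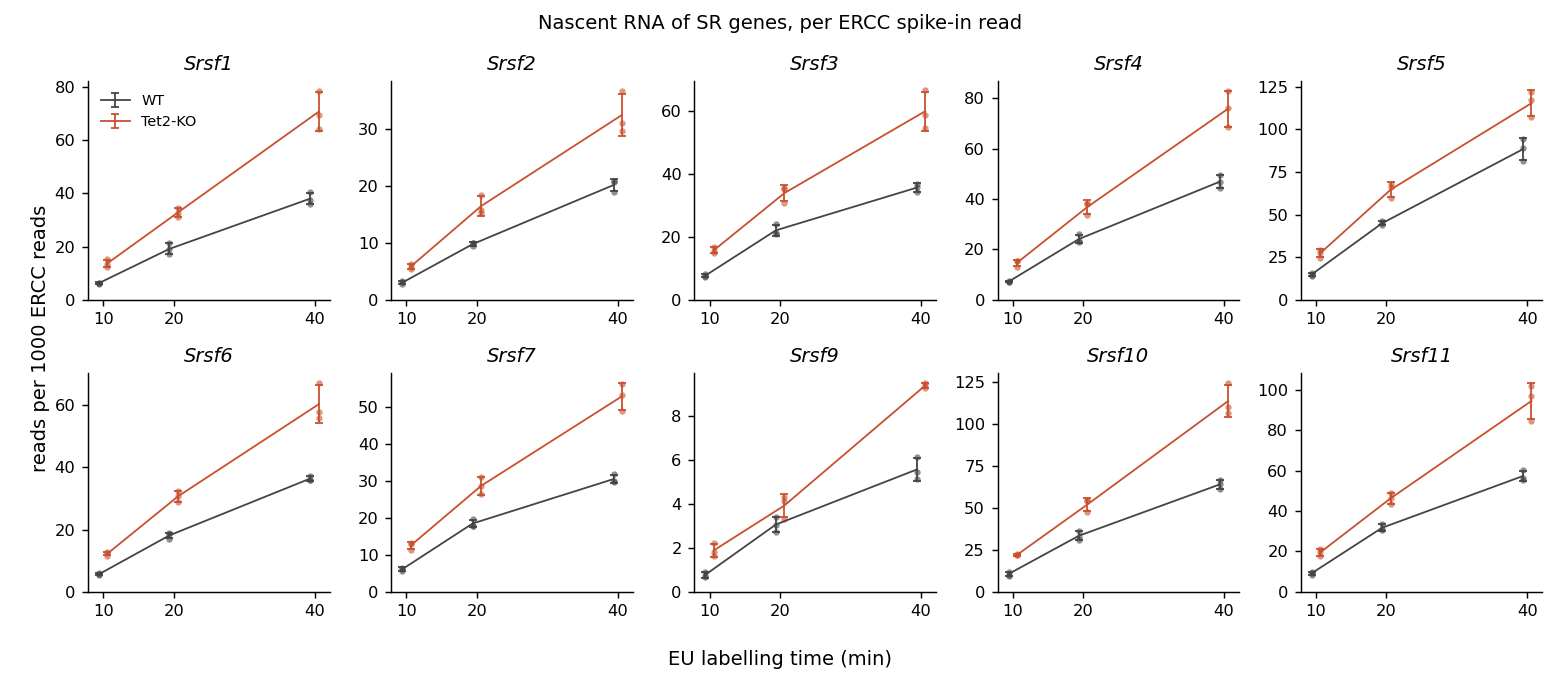
Reads per 1000 ERCC reads of the 10 SR genes against EU labelling time in minutes. Points are single libraries, lines join means of 3 libraries, and bars are SD. Tet2-KO libraries (red) lie above WT (dark grey) at every time, apart from Srsf9 at 20 min, where they overlap.

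Srsf1, the founding SR protein, which steers the choice of 5′ splice site, showed the largest difference on average. In WT its 3 libraries held 6.42, 6.38 and 5.96 reads per 1000 ERCC reads at 10 min, 18.9, 21.3 and 17.2 at 20 min, and 36.1, 40.5 and 37.6 at 40 min. In Tet2-KO they held 13.4, 12.5 and 15.2 at 10 min, 31.1, 34.6 and 32.7 at 20 min, and 78.7, 64.3 and 69.4 at 40 min. Every Tet2-KO library was above every WT library of its time. The fold change was 2.19 at 10 min, 1.72 at 20 min and 1.86 at 40 min. The average log2 fold change was 0.94 (SE 0.05, edgeR adjusted p = 2.58e-53). The fit pools the spread over genes, and an error in a library's ERCC total is common to all its genes. Adjusted p-values per ERCC read are thus smaller than 3 dishes per group alone would give. Srsf5, which encodes an SR protein with a pair of RNA recognition motifs like Srsf4 and Srsf6, showed the smallest on average. It rose from 88.4 ± 6.50 (SD, n = 3) in WT to 115 ± 7.55 in Tet2-KO at 40 min, a fold change of 1.31, against 1.84 at 10 min and 1.44 at 20 min. The average log2 fold change of Srsf5 was 0.59 (SE 0.05, adjusted p = 5.16e-28), below the median of all genes. At single times Srsf9 had both the largest fold change at 10 min (2.43) and the smallest at 20 min (1.28).

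The remaining members lay close together. Srsf10, which represses splicing when it loses its phosphates, went from 64.1 ± 2.63 (SD, n = 3) to 114 ± 9.56 reads per 1000 ERCC reads at 40 min. Srsf11, an SR-related protein that contacts U2AF, went from 57.4 ± 2.56 to 94.6 ± 8.98, and Srsf4 from 46.9 ± 2.55 to 75.9 ± 7.13. Their log2 fold changes on average were 0.84, 0.78 and 0.78. For Srsf3 and Srsf7, adaptors that also recruit the mRNA export receptor, the average was 0.80 and 0.82, for Srsf6 0.87 and for Srsf2 and Srsf9 0.80. The SE of these values was between 0.0506 and 0.0707.

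The slope of the level on labelling time was taken as the transcription rate, with 9 libraries per genotype and no test. Over the 3 times together, rates were higher in Tet2-KO for all 10 genes. From the 10 and 20 min libraries alone the ratio of Tet2-KO to WT was below 1 for Srsf9, at 0.892. Srsf5 had the highest WT rate, at 2.41 ± 0.12 (SE, n = 9) reads per 1000 ERCC reads per min, and reached 2.88 ± 0.17 in Tet2-KO, a ratio of 1.19 ± 0.09. Srsf10 went from 1.75 ± 0.09 to 3.07 ± 0.15 (ratio 1.76 ± 0.12), so that in Tet2-KO the SE ranges of its slope and that of Srsf5 overlapped. The ratio was highest for Srsf1, at 1.82 ± 0.14, with rates of 1.04 and 1.90. The other ratios were 1.55 for Srsf2, 1.56 for Srsf4, 1.57 for Srsf6, 1.60 for Srsf11, 1.62 for Srsf3, 1.64 for Srsf9 and 1.70 for Srsf7. Summed over the SR genes, the rate was 11.5 ± 0.61 in WT and 17.9 ± 0.95 in Tet2-KO, a ratio of 1.56 ± 0.12, beside 1.56 ± 0.15 for all protein-coding genes. From the 10 and 20 min libraries alone the ratio was 1.31 for the SR genes and 1.11 for all protein-coding genes, and from those of 20 and 40 min 1.71 and 1.92. The levels did not rise along one straight line: in WT, Srsf5 gained 3.01 reads per 1000 ERCC reads per min between 10 and 20 min and 2.17 between 20 and 40 min.

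**Figure D2:**
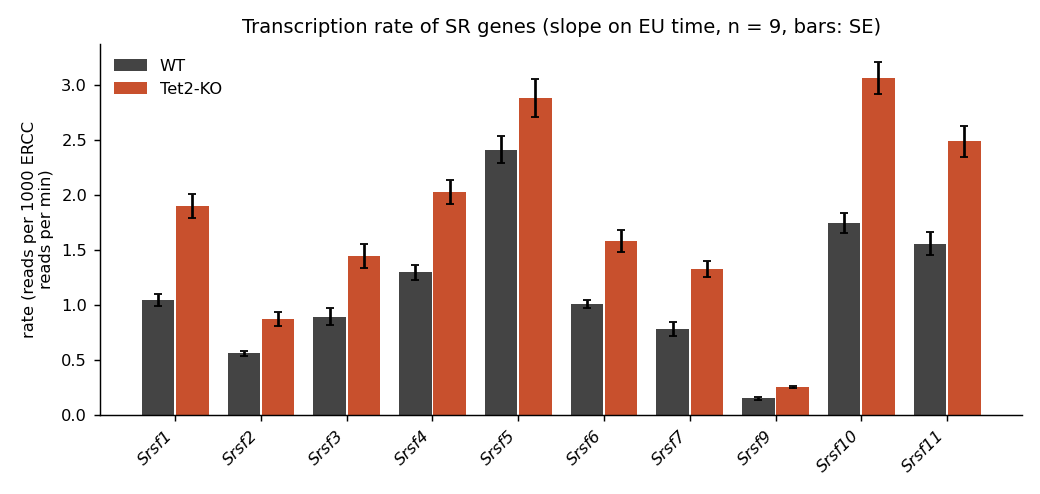
Transcription rate of each SR gene, in reads per 1000 ERCC reads per min, as the slope on EU time in 9 WT (dark grey) and 9 Tet2-KO (red) libraries. Bars start at 0 and error bars are the SE of the slope. The pair of bars is closest, relative to their height, for Srsf5 (ratio 1.19), and furthest apart for Srsf1 (ratio 1.82).

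As a share of gene reads, most SR genes were slightly higher in Tet2-KO and Srsf5 was lower. On average over the labelling times, 7 of the 10 rose and 1 fell, where 24.6% of all genes rose and 32% fell. Whether a small difference is called depends on read depth. Here and in the other comparisons, all genes tested were not matched to the SR genes in depth. The median log2 fold change of the 10 was 0.07, against -0.04 over all genes tested. The 7 genes were Srsf1 (0.20, SE 0.0236), Srsf6 (0.13), Srsf10 (0.11), Srsf7 (0.09), Srsf3 (0.07), Srsf11 (0.05) and Srsf4 (0.05), so the largest of these differences was a fold change of 1.15. Srsf2 (0.06, adjusted p = 0.0659) and Srsf9 (0.07, adjusted p = 0.335) did not pass. Srsf3 had a slightly larger value and a smaller SE, of 0.0185 (adjusted p = 0.00241), against an SE of 0.0293 for Srsf2 and 0.056 for Srsf9. The summed share of embryonic stem cell markers fell between the same groups, as given above, and its part in these shares was not tested.

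Calls for the genes nearest to 0 depended on the scale. With all reads scaled by TMM or by DESeq2 size factors, Srsf2 was also called higher (log2 fold change 0.10 in both, adjusted p = 0.00303 and 0.00444). With reads on protein-coding genes as the denominator, Srsf4 (0.03, adjusted p = 0.127) and Srsf11 (0.03, adjusted p = 0.0737) were not called. Srsf4 also lost its call without any one of 10 libraries (WT 10 min replicates 1 and 2, WT 20 min replicates 1 and 3, WT 40 min replicate 3, Tet2-KO 10 min replicate 1, Tet2-KO 20 min replicates 2 and 3, and Tet2-KO 40 min replicates 1 and 3), and Srsf11 without Tet2-KO 10 min replicate 3 or Tet2-KO 40 min replicate 3. Srsf2 gained one, with adjusted p from 0.0227 to 0.0461, without WT 20 min replicate 1, WT 40 min replicate 1, Tet2-KO 20 min replicate 3 or Tet2-KO 40 min replicate 3. The direction of all these genes was the same on each of these scales.

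Split by labelling time, more SR genes were called in share at 20 min than at 10 or 40 min. At 10 min 1 SR gene was higher (Srsf9) and 1 lower (Srsf5), where 17.9% of all genes were higher and 27.1% lower. At 20 min 7 were higher and 0 lower, beside 17.6% and 20.7% of all genes. At 40 min 3 were higher (Srsf1, Srsf7 and Srsf10) and 1 lower (Srsf5), beside 18.9% and 19.6%. The genes higher at 20 min were Srsf1, Srsf2, Srsf3, Srsf4, Srsf6, Srsf7 and Srsf10, with log2 fold changes between 0.13 and 0.30. Whether the difference at 20 min departed from that at 10 or 40 min was not tested. Of the 4 fibroblast markers with enough reads to test, 3 were lower in Tet2-KO at 10 min (median log2 fold change -1.54), 4 higher at 20 min (2.03) and 1 higher at 40 min. Their part in these shares was not tested. At 10 min the count depended on the scale: all genes split into 3554 higher and 5389 lower by share and 4477 and 4262 with TMM, and with TMM 5 SR genes were called higher in place of 1.

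**Figure D3:**
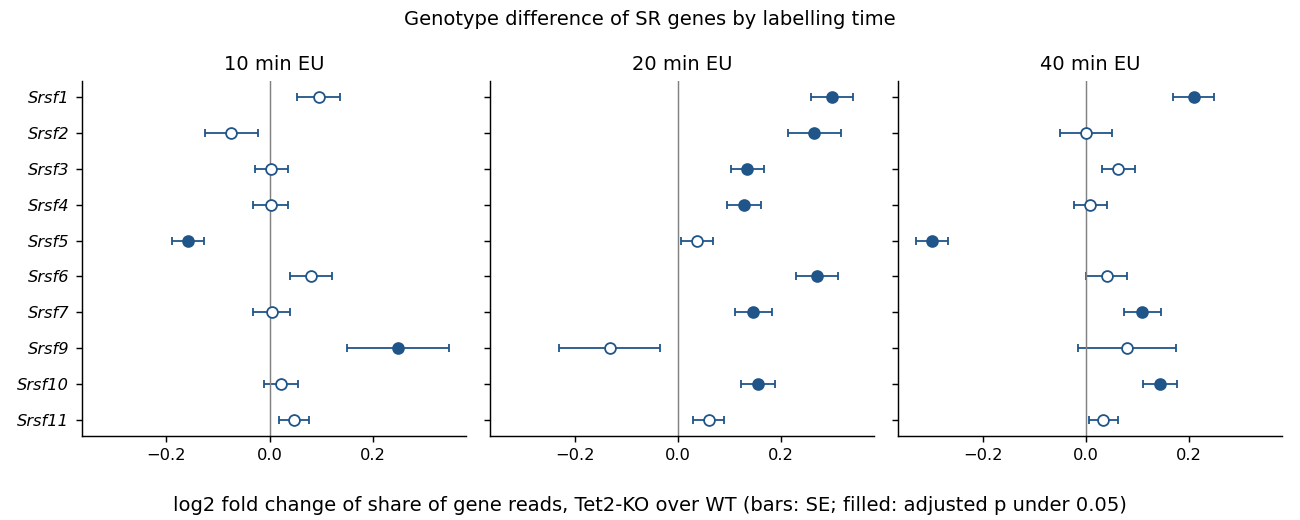
log2 fold change in share of gene reads, Tet2-KO over WT, for each SR gene at 10, 20 and 40 min of EU. Points are edgeR estimates, bars are SE, and filled points have an adjusted p under 0.05. The 7 filled points at 20 min all lie to the right of 0, while Srsf5 lies to the left at 10 and 40 min.

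Srsf1 had the largest increase in share. Its WT libraries took 138, 126 and 139 RPM at 10 min, 131, 135 and 122 at 20 min, and 148, 157 and 157 at 40 min. The Tet2-KO libraries took 140, 139 and 151 at 10 min, 162, 161 and 155 at 20 min, and 183, 176 and 175 at 40 min. The genotypes were apart at 20 and 40 min and touched at 10 min, where WT replicate 3 (139.4) lay above Tet2-KO replicate 2 (139.1). The log2 fold change was 0.09 at 10 min (adjusted p = 0.0603), 0.30 at 20 min (adjusted p = 3.48e-07) and 0.21 at 40 min (adjusted p = 7.52e-05).

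Srsf5 went the other way. In WT it took 314, 311 and 329 RPM at 10 min, 311, 294 and 311 at 20 min, and 366, 366 and 341 at 40 min. In Tet2-KO it took 288, 276 and 291, then 312, 306 and 322, then 283, 292 and 296. All Tet2-KO libraries lay below all WT libraries at 10 and 40 min, and the groups overlapped at 20 min. The log2 fold change was -0.16 at 10 min (adjusted p = 8.01e-05), 0.04 at 20 min (adjusted p = 0.369) and -0.30 at 40 min (adjusted p = 9.06e-10). The average of -0.14 (SE 0.0179, adjusted p = 3.79e-08) was lower under every scaling of gene reads tried and without any single library. Srsf5 was therefore higher in Tet2-KO per ERCC read and lower as a share of gene reads.

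A ratio between 2 genes of the same library does not depend on either scale. Srsf5 and Srsf1 were taken for it after their values were seen, as the lowest and the highest of the 10 in share, so their ratio is a description and no independent support. For 10, 20 and 40 min in turn, WT had 2.37 ± 0.10, 2.36 ± 0.19 and 2.32 ± 0.15 (SD, n = 3) reads of Srsf5 per read of Srsf1. In Tet2-KO this ratio was 1.99 ± 0.07, 1.97 ± 0.10 and 1.63 ± 0.08. Every Tet2-KO library had a lower ratio than every WT library of its time.

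The genotype difference of Srsf5 in share changed between 10 and 40 min by -0.14 on the log2 scale (SE 0.0437, adjusted p = 0.0367), the one SR gene called lower for this change, with 0 called higher. Of all genes, 5.89% were called higher and 3.36% lower. The call was lost in most cases when a 10 or 40 min library was left out: its adjusted p was between 0.0607 and 0.114 without any one of WT 10 min replicates 1 and 2, WT 40 min replicates 1 and 2, Tet2-KO 10 min replicates 1 and 3 or Tet2-KO 40 min replicates 1 and 2. Without WT 40 min replicate 3 or Tet2-KO 10 min replicate 2, 1 SR gene was called higher. All genes split into 1173 higher and 668 lower for this change by share, and into 774 and 1219 with TMM. Per ERCC read, a comparison added after the data were seen, 5 SR genes (Srsf4, Srsf5, Srsf6, Srsf9 and Srsf11) had a smaller genotype difference at 40 than at 10 min, as had 19.3% of all genes, whose median change was -0.29. The count was 1 without WT 10 min replicate 3, WT 40 min replicate 2 or Tet2-KO 10 min replicate 3, 2 without WT 10 min replicate 1, Tet2-KO 10 min replicate 1 or Tet2-KO 40 min replicate 2, 3 without Tet2-KO 40 min replicate 3, and 7 without WT 10 min replicate 2.

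For Srsf2 and Srsf9 the estimated genotype difference in share was not the same at each labelling time. The test of its change between 10 and 40 min did not pass for either (adjusted p = 0.606 and 0.515), and changes to or from 20 min were not tested. Srsf2, an SR protein that acts at exonic enhancers, took 64.8, 63.5 and 63.3 RPM in WT and 60.5, 59.2 and 62.3 in Tet2-KO at 10 min. At 20 min it took 69.1, 62.8 and 66.8 in WT and 79.3, 85.2 and 74.2 in Tet2-KO, and at 40 min 81.4 ± 3.49 and 81.4 ± 3.64. Its log2 fold change was -0.07 at 10 min (adjusted p = 0.254), 0.26 at 20 min (adjusted p = 7.42e-05) and close to 0 at 40 min. Srsf9 took 15.6, 18.1 and 16.2 RPM in WT and 18.9, 18.4 and 22.0 in Tet2-KO at 10 min, a log2 fold change of 0.25 (adjusted p = 0.0391). That call was lost without Tet2-KO 10 min replicate 3 and in a fit of the 10 min libraries alone, and 2 SR genes were called without WT 20 min replicate 3 or Tet2-KO 10 min replicate 1 or 2. At 20 and 40 min the Srsf9 libraries overlapped between genotypes.

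**Figure D4:**
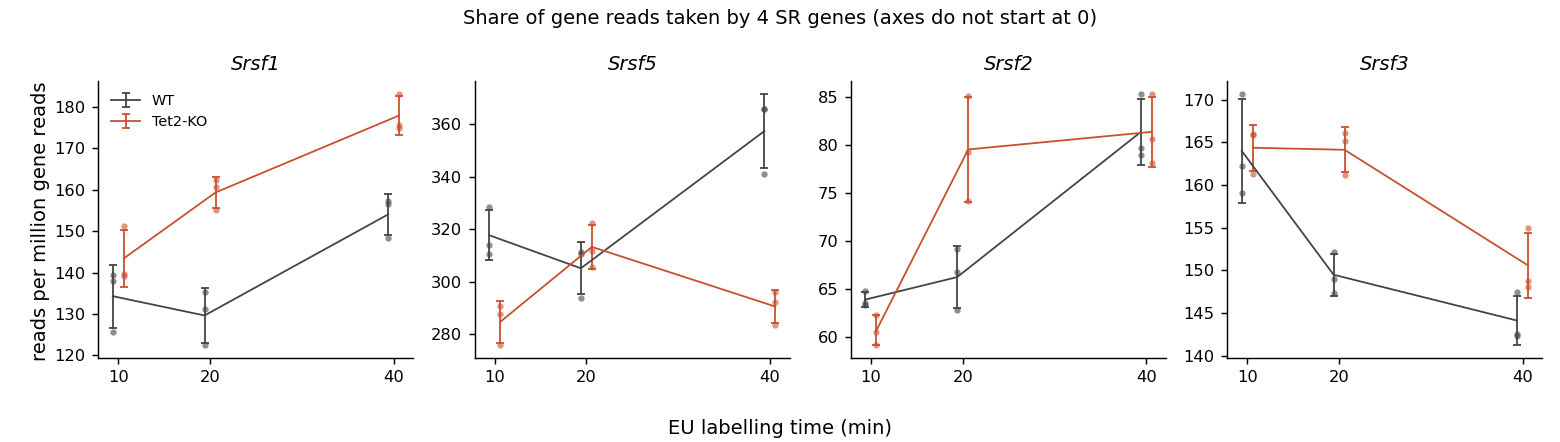
Share (reads per 1000000 gene reads) of Srsf1, Srsf5, Srsf2 and Srsf3 against EU labelling time in minutes, with axes that do not start at 0. Points are single libraries, lines join means of 3 libraries and bars are SD. Srsf1 is higher in Tet2-KO (red) at 20 and 40 min, Srsf5 is lower at 10 and 40 min, and Srsf3 falls with time in both genotypes.

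With longer labelling, most SR genes took a growing share of the labelled RNA in both genotypes. Between 10 and 40 min 8 rose and 1 fell in WT, where 16.1% of all genes rose and 29.5% fell. In Tet2-KO 7 rose and 1 fell, beside 16.5% and 20% of all genes. The rise was steep for Srsf2, by 0.35 on the log2 scale in WT (adjusted p = 6.7e-07) and 0.42 in Tet2-KO (adjusted p = 3.87e-08), for Srsf4, by 0.31 and 0.32, and for Srsf9 in WT, by 0.44 (adjusted p = 0.000344). Srsf9 in Tet2-KO rose by 0.27 (adjusted p = 0.0272), a call lost without Tet2-KO 10 min replicate 1 or 2 or Tet2-KO 40 min replicate 2 or 3. Srsf1, Srsf6, Srsf10 and Srsf11 rose by 0.19 to 0.31. Srsf5 rose in WT by 0.17 (adjusted p = 2.58e-05), and its value in Tet2-KO was 0.03 (adjusted p = 0.51).

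Among the 10 genes, Srsf3, the smallest SR protein, was the exception. It took 162, 159 and 171 RPM at 10 min in WT and 147, 143 and 142 at 40 min, with no overlap. In Tet2-KO it took 161, 166 and 166 at 10 min and 155, 149 and 148 at 40 min, again with no overlap. It thus fell by 0.19 in WT (adjusted p = 1.19e-05) and by 0.13 in Tet2-KO (adjusted p = 0.00214) on the log2 scale. A fall was not particular to Srsf3: Srsf12, outside the 10, had -0.48 in WT and -0.76 in Tet2-KO, the lowest values among the SR-like proteins. Srsf3 reads per Srsf2 read went from 2.57 ± 0.11 (SD, n = 3) at 10 min to 1.77 ± 0.04 at 40 min in WT. In Tet2-KO they went from 2.71 ± 0.08 to 1.85 ± 0.04. Srsf3 fell and Srsf2 rose in share in both lines, so this ratio restates those changes and is no independent support. Srsf7 gave -0.08 in WT (adjusted p = 0.0525) and 0.02 in Tet2-KO (adjusted p = 0.675), and its WT value was 0.02 with TMM and 0.01 with DESeq2 size factors. Srsf7 was called lower in WT (adjusted p from 0.0342 to 0.0466) without WT 10 min replicate 2 or Tet2-KO 10 min replicate 1 or 2. All genes split into 3196 higher and 5875 lower in WT by share and into 4546 and 4383 with TMM, with the same 8 and 1 counts for the SR genes. The median of all genes was -0.14 by share and -0.03 with TMM. The share of reads outside genes was 15.9% to 16.9% in WT at 10 and 20 min and 13.2% to 13.9% at 40 min. In Tet2-KO it was between 15.1% and 16.7% at the shorter times and between 14.4% and 14.8% at 40 min. The 4 fibroblast markers tested fell in share between 10 and 40 min in WT, and 0 of them passed the test in Tet2-KO. The part of either in these changes was not tested.

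Genes for proteins that work with SR proteins were counted in the same way. Of 20 SR-like proteins, 20 rose per ERCC read, and 12 rose and 3 fell as a share, with a median log2 fold change in share of 0.06. Tra2a, a splicing activator, was highest (0.22) and Rnps1, a protein of the exon junction complex, lowest (-0.25). Of the 9 genes for SR protein kinases and the importer Tnpo3, 9 rose per ERCC read, and 4 rose and 2 fell as a share, with a median of 0.08. Clk1, a nuclear kinase that phosphorylates SR proteins, was lowest (-0.11, adjusted p = 2.45e-05). Srpk3 had the highest value (0.30) but an SE of 0.308 and an adjusted p of 0.431.

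The hnRNP proteins, which often oppose SR proteins at splice sites, rose per ERCC read in 25 of 25 cases. As a share 13 rose and 6 fell, with a median of 0.05, from Pcbp1 (-0.33) to Hnrnph3 (0.49). Among genes for the recognition of splice sites by U1, U2AF and SF3 proteins, 16 of 17 were tested and 16 rose per ERCC read. As a share 6 rose and 6 fell, with a median of 0.02, from Sf3b6 (-0.29) to Sf3b4 (0.28). Of 10 factors of nonsense-mediated decay, 10 rose per ERCC read, and 6 rose and 2 fell as a share, with a median of 0.11, from Smg9 (-0.18) to Smg5 (0.31). The medians of all 5 lists lay above the -0.04 of all genes tested, and the counts of higher genes stand beside the 80.5% and 24.6% given above. No test compared the lists with each other or with other genes.

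**Figure D5:**
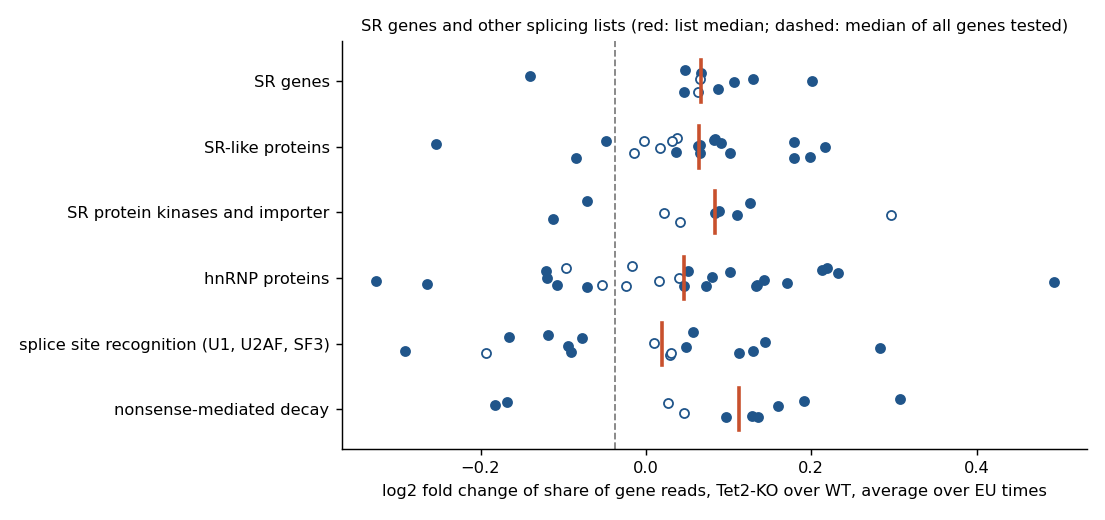
log2 fold change in share of gene reads, Tet2-KO over WT and averaged over EU times, for the SR genes and 5 other lists. Each point is a gene, filled where the adjusted p is under 0.05, with random vertical placement. Red lines are list medians and the dashed line is the median of all genes tested. The SR median is 0.07 and Srsf5 (-0.14) stands apart on the left.

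Over the 18 libraries genes whose share closely followed the mean pattern of the SR genes included G3bp1, Scaf11, Arglu1 and Ptcd3, at a root mean square difference of 0.0316 to 0.0361 on the log2 scale, among 5614 other protein-coding genes. Scaf11 is itself on the list of SR-like proteins. Among the members, Srsf11 (0.0394) and Srsf4 (0.0578) were nearest to the mean of the 10, and Srsf5 (0.125), Srsf3 (0.147) and Srsf9 (0.154) furthest, close to the 0.158 of a median gene. This is a description, since the members form the mean they are compared with.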

How the data were processed

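Nascent RNA was captured after EU labelling and sequenced from WT and Tet2-KO mES cells, 3 libraries in each of 6 groups. The authors trimmed reads (Trimmomatic 0.39), aligned them to mm10 with the ERCC sequences (HISAT2 2.2.1) and counted them per gene (HTSeq 0.12.4), and the deposited values are raw counts per gene and library. Rows that name no gene were left out: reads outside genes made up 13.2% to 16.9% per library, ambiguous reads 2.32% to 2.5% and reads aligned to several places 5.24% to 5.99%. Symbols came from GENCODE M21, which held 54409 of the 54446 identifiers.

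All 18 libraries entered one edgeR 4.0.16 quasi-likelihood fit (R 4.3.3) with a mean per group and no covariate, after filterByExpr with a minimum count of 10. The library size was the ERCC read total (level per ERCC read) or the gene read total (share). P-values were adjusted by Benjamini-Hochberg over all 19910 genes and called at 0.05. Levels per kilobase used the gene span without overlaps on the same strand. Depth per library is given in the report, and counting errors cover counting only. Alternatives were TMM, DESeq2 1.42.0 size factors and its Wald test, the median of ratios over 18 ERCC transcripts with at least 100 reads, reads of protein-coding genes as denominator, no filter, each EU time alone, a replicate block and each library left out. On counts simulated for 18732 genes of the average comparison per ERCC read, edgeR recovered 196 of 200 changed genes and called 6 unchanged ones. The changes set were larger than those of the SR genes in share, and left out the genes with fewest reads. Neither shares nor errors in ERCC totals were simulated, so this says nothing about the calls in share. Within groups, all 18 pairs of replicates differed by more than sampling noise (chi-square averaged over genes, 1.62 to 5.26).

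The SR genes and the lists were chosen with earlier results of these data known. Genes named are the 10 members, the highest and lowest gene of each list by share, and the 5 genes nearest to the members' mean profile (mean log2 CPM above 5, with a pseudocount of 0.1 CPM), of which 1 is not reported here.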

Additional observations from a re-analysis of the deposited data

Results flagged for a closer look

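For some SR genes the test of a change in the genotype difference between 10 and 40 min of labelling passed. Per ERCC read the change on the log2 scale (Tet2-KO minus WT at 40 min, less the same at 10 min) was -0.36 for Srsf11 (SE 0.124, edgeR adjusted p = 0.0261), -0.341 for Srsf4 (SE 0.125, adjusted p = 0.0388) and -0.492 for Srsf5 (SE 0.122, adjusted p = 0.00205). For Srsf6 it was -0.386 (SE 0.127, adjusted p = 0.0199) and for Srsf9 -0.524 (SE 0.172, adjusted p = 0.02). The median over all genes tested was -0.29, with 19.3% of all genes called lower, and the difference of each gene from that median was not tested. Leaving out each library in turn gave 1 to 7 SR genes called lower per ERCC read. As a share of gene reads the change was -0.141 for Srsf5 (SE 0.0437, adjusted p = 0.0367), where the median of all genes was 0.06 and 3.36% were called lower. That call was lost in most cases when a 10 or 40 min library was left out, and no other SR gene was called in share.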

How the results depend on the processing

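The SR genes were higher in Tet2-KO per ERCC read under every alternative run for the average, in 10 of 10 genes. Leaving out each library in turn gave 6 to 8 genes higher in share on average, 0 to 2 at 10 min and 2 to 3 at 40 min, and 9 to 10 genes higher per ERCC read at 20 min. For the change of the genotype difference from 10 to 40 min it gave 0 to 1 genes higher and 0 to 1 lower in share and 1 to 7 lower per ERCC read. For 40 against 10 min it gave 1 to 2 genes lower in WT and 6 to 7 higher in Tet2-KO, and the rate ratio of the sum was 1.47 to 1.65. The lists moved by at most 1 gene.

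At 10 min the count of SR genes higher in share, 1 as reported, was 5 with TMM, 5 with DESeq2 size factors, 0 with reads of protein-coding genes as denominator, 2 without the filter and 0 with the 10 min libraries alone. The 5 genes with a smaller difference at 40 min per ERCC read became 3 with the median of ratios over ERCC transcripts. With reads of protein-coding genes as denominator 2 genes fell from 10 to 40 min in WT, the second being Srsf7 (-0.09, adjusted p = 0.0288). With TMM 1 SR-like gene and 1 kinase or importer gene fell in share, in place of 3 and 2. The rate ratio of the sum was 1.31 from 10 and 20 min and 1.71 from 20 and 40 min. Srsf7 in WT, 40 against 10 min, turned to 0.0178 with TMM (adjusted p = 0.716) and to 0.0145 with DESeq2 size factors (adjusted p = 0.771), and in Tet2-KO to -0.0034 without Tet2-KO 10 min replicate 2 (adjusted p = 0.961), where leaving out each library gave -0.0034 to 0.0641. The rate ratio of Srsf9 was 0.892 from 10 and 20 min alone. The call of Srsf4 in share was lost without the filter (0.0461, adjusted p = 0.066) and, like that of Srsf11, without single libraries (adjusted p from 0.0576 to 0.125 and from 0.0509 to 0.0538). The cause of these changes was not tested.

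Replicate numbers did not pair the libraries: the median correlation of deviations over 45 pairs with the same number was -0.00698 (from -0.0718 to 0.0642), and 5 of 18 libraries correlated best with their own number. With the replicate number as a block, the 5 genes with a smaller difference at 40 min per ERCC read were 4, and 7 rose and 1 fell in share on average, as without it. Srsf9, with the fewest reads, limits what depth can show.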
